A study of Homo sapiens with 9 samples.

Results

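The DNAJ proteins, also called HSP40 or J-domain proteins, are the co-chaperones that deliver substrates to HSP70 and stimulate its ATPase. Members were all genes of the deposited table whose symbol is DNAJA, DNAJB or DNAJC with a number, and DNAJB9 and DNAJC3, which belong to the unfolded protein response, were left out. The rule found 43 members among 19930 genes. Their RNA was measured in 9 libraries of 3 groups of 3, all labelled as the breast cancer cell line MDA-MB-453 and all transfected with a lipid reagent. X453_NC was the control, and X453_1 and X453_2 were both labelled as knockdown of Linc00673, a long noncoding RNA. The study used 2 siRNAs against it, and the labels do not say whether the number after X453 names the siRNA. The labels give 48 h after transfection as the harvest time. Values are FPKM, fragment counts normalised to transcript length and library size, so that levels can be compared between genes.

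J-domain proteins set the place and the task of HSP70. The conserved J domain carries a histidine-proline-aspartate motif that triggers ATP hydrolysis by HSP70, so that HSP70 closes on its client, and nucleotide exchange factors such as the BAG proteins and HSPH1 then reopen it. Members of subfamilies A and B mostly bind unfolded clients themselves, whereas those of subfamily C share little beyond the J domain and work at fixed places such as the mitochondrial import motor, the endoplasmic reticulum (ER) membrane or clathrin-coated vesicles. A few members, DNAJB1 foremost, are targets of heat-shock factor HSF1 and are induced by proteotoxic stress, whereas most are made at a steady level. The members were accordingly put into classes from general knowledge: 4 heat-inducible, 11 constitutive cytosolic or nuclear, 6 mitochondrial, 8 of the ER, 3 of endosomes or vesicles, 6 restricted to testis or other tissues, and 5 left unclassed.

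The libraries were close within a group and stood apart between groups. Pearson correlations of log2(FPKM + 1) lay at 0.994 to 0.996 within groups and started at 0.955 between them, and the depth estimated from the steps of low values was 23400000 to 27650000 fragments per library. The cell line label was checked against its markers, and some of them were missing. MDA-MB-453 is known for FOXA1, SPDEF and amplified ERBB2, yet FOXA1 was listed at 0 to 0.04 FPKM and SPDEF at 0.57 to 1.24 in the 9 libraries. ERBB2 was at 11.79 to 17.82 FPKM, the luminal keratin KRT8 at 3011.46 to 3773.05 and KRT18 at 1679.95 to 2508.96. VIM, a mesenchymal marker fixed as low for this line, was at 366.06 to 440.74 FPKM. Of the other markers fixed as low, ESR1 was at 0 to 0.02, KRT14 at 0.03 to 0.25 and KRT5 at 0.35 to 0.63 FPKM. PGR, also fixed as low, had no value to check. Of the fibroblast markers, COL3A1 and DCN were at 0 to 0.04 FPKM, COL1A2 at 0 to 0.12, COL1A1 at 3.49 to 7.08 and LUM at 5.33 to 7.11. Summed, the 5 fibroblast markers were at 9.32 to 9.84 FPKM in X453_NC, 12.1 to 12.6 in X453_1 and 11.1 to 12.4 in X453_2, and their part in the results was not tested. The cells are called by their label. Nothing in the labels says that the 3 libraries of a group came from separate cultures, so the p-values measure the spread between these libraries, which may be technical.

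Before any comparison, the levels in X453_NC ranged over orders of magnitude. DNAJB1, the main stress-induced partner of cytosolic HSP70, was the highest member in the control cells at 66.65 ± 1.17 FPKM (SD, n = 3). DNAJC7, a tetratricopeptide protein that bridges HSP70 and HSP90, followed at 57.6 ± 1.3 FPKM, and DNAJB6, a suppressor of protein aggregation, at 54.5 ± 0.85 FPKM. The libraries of these 3 members did not overlap in X453_NC. DNAJC15 and DNAJB11 came next at 42.9 and 41.7 FPKM, and these neighbours did not differ beyond their spread. At the other end of the tested range were the ER member DNAJC18 at 2.78 ± 0.095 FPKM, DNAJC27 at 1.91 ± 0.086 FPKM and the mitochondrial DNAJC30 at 1.48 ± 0.11 FPKM.

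A filter of a mean of 1 FPKM over the 9 libraries kept 36 members for testing among 12884 genes. The 7 members that failed it were DNAJB3, DNAJB7, DNAJB8, DNAJB13, DNAJC5B, DNAJC5G and DNAJC28, of which the first 6 make up the tissue-restricted class, and none exceeded 0.46 FPKM in any library. DNAJB8 and DNAJC5B, testis proteins, were listed at 0 in all libraries but X453_NC_r1. DNAJC30 passed the filter through X453_NC: it was at 1.48, 1.58 and 1.37 FPKM in that group and below 1 FPKM in all 6 knockdown libraries.

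Summed over the 43 members, the family stood at 710.55 to 723.11 FPKM in X453_NC, 846.93 to 860.09 in X453_1 and 1295.1 to 1378.58 in X453_2. The 4 heat-inducible members held the difference. Their sum was 113.25 to 115.3 FPKM in X453_NC, 258 to 271.64 in X453_1 and 717.52 to 792.83 in X453_2, whereas the sum of the other 39 members was 595.25 to 609.86, 588.45 to 589.23 and 577.58 to 590.54 FPKM. DNAJB1 alone made up 9.30% ± 0.24 (SD, n = 3) of the summed FPKM in X453_NC, 21.8% ± 0.50 in X453_1 and 48.9% ± 1.35 in X453_2. The ER members summed to 105.39 to 108.58 FPKM in X453_NC, 97.81 to 99.90 in X453_1 and 95.55 to 97.43 in X453_2.

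**Figure D1:**
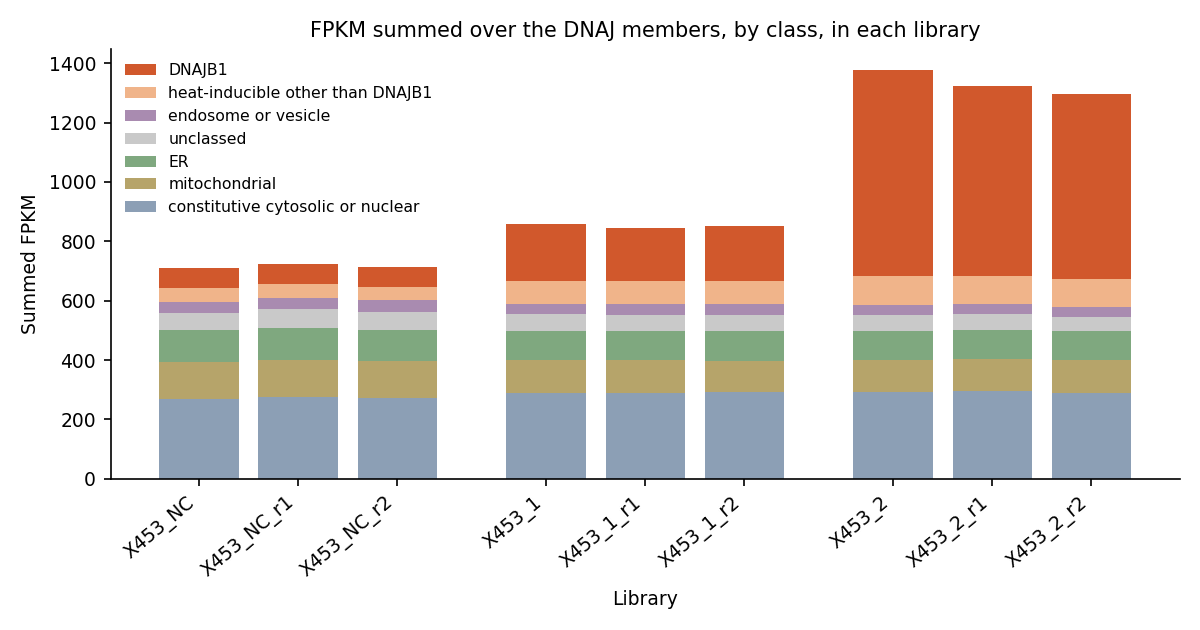
FPKM summed over the DNAJ members in each of the 9 libraries, stacked by class, with DNAJB1 apart from the other heat-inducible members; the y axis is summed FPKM from 0 and the tissue-restricted members, under 0.1% of the sum, are not drawn. The stacks below the heat-inducible members are alike in height, and DNAJB1 alone accounts for 621.57 to 695.72 FPKM in the X453_2 libraries.

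Each knockdown group was compared with the control to ask which members changed. A gene was called changed, by the criteria of the study, at a fold change of at least 1.3 on the log2(FPKM + 1) scale and an unadjusted P of at most 0.05 in limma, fitted across all tested genes and libraries. With 3 libraries against 3, an exact permutation test cannot go below 0.1 (two-sided). In X453_1, 5 of the 36 members were called higher and 5 lower, beside 11.1% and 15.6% of all genes tested. In X453_2, 5 were called higher and 10 lower, beside 11% and 23.1% of all genes. These shares of members are near the shares of all genes, and the members' distribution over classes is what the following describes. After scaling the libraries to their median ratio, the X453_2 split became 8 higher and 8 lower among the members, and without the library X453_2_r2 the count of higher members was also 8: DNAJB6, DNAJC2 and DNAJC8, constitutive members just under the fold limit, were added in both cases.

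By class, the heat-inducible members had 3 of 4 called higher in X453_1 and 4 of 4 in X453_2, and none lower. The median log2 fold change of these 4 was 0.77 in X453_1 and 1.19 in X453_2. Over the 32 other tested members the medians were -0.12 and -0.24, and over all genes tested 0.0032 and -0.095. With DNAJB2, DNAJB5 and DNAJB6 added to the heat-inducible class its medians were 0.42 and 0.51. After scaling to the median ratio the median of the 32 others in X453_2 was -0.13, and after GC correction it was -0.23 in X453_1. Of the 11 constitutive members, 2 were called higher and 1 lower in X453_1, beside 11.1% and 15.6% of all genes. None was called in X453_2, beside 11% and 23.1%, and the 11 lay between -0.34 and 0.37. With 0.1 FPKM added in place of 1, DNAJC2 (0.39) and DNAJC8 (0.38) were called higher in X453_2 and DNAJC17 (-0.40) lower. Of the 17 tested members of the mitochondria, ER, endosomes and vesicles, none was called higher and 4 lower in X453_1, beside 11.1% and 15.6% of all genes, while 1 was called higher and 9 lower in X453_2, beside 11% and 23.1%. Without DNAJC30, which passed the filter through X453_NC, 8 of 16 were called lower in X453_2; this was chosen after its values were seen.

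**Figure D2:**
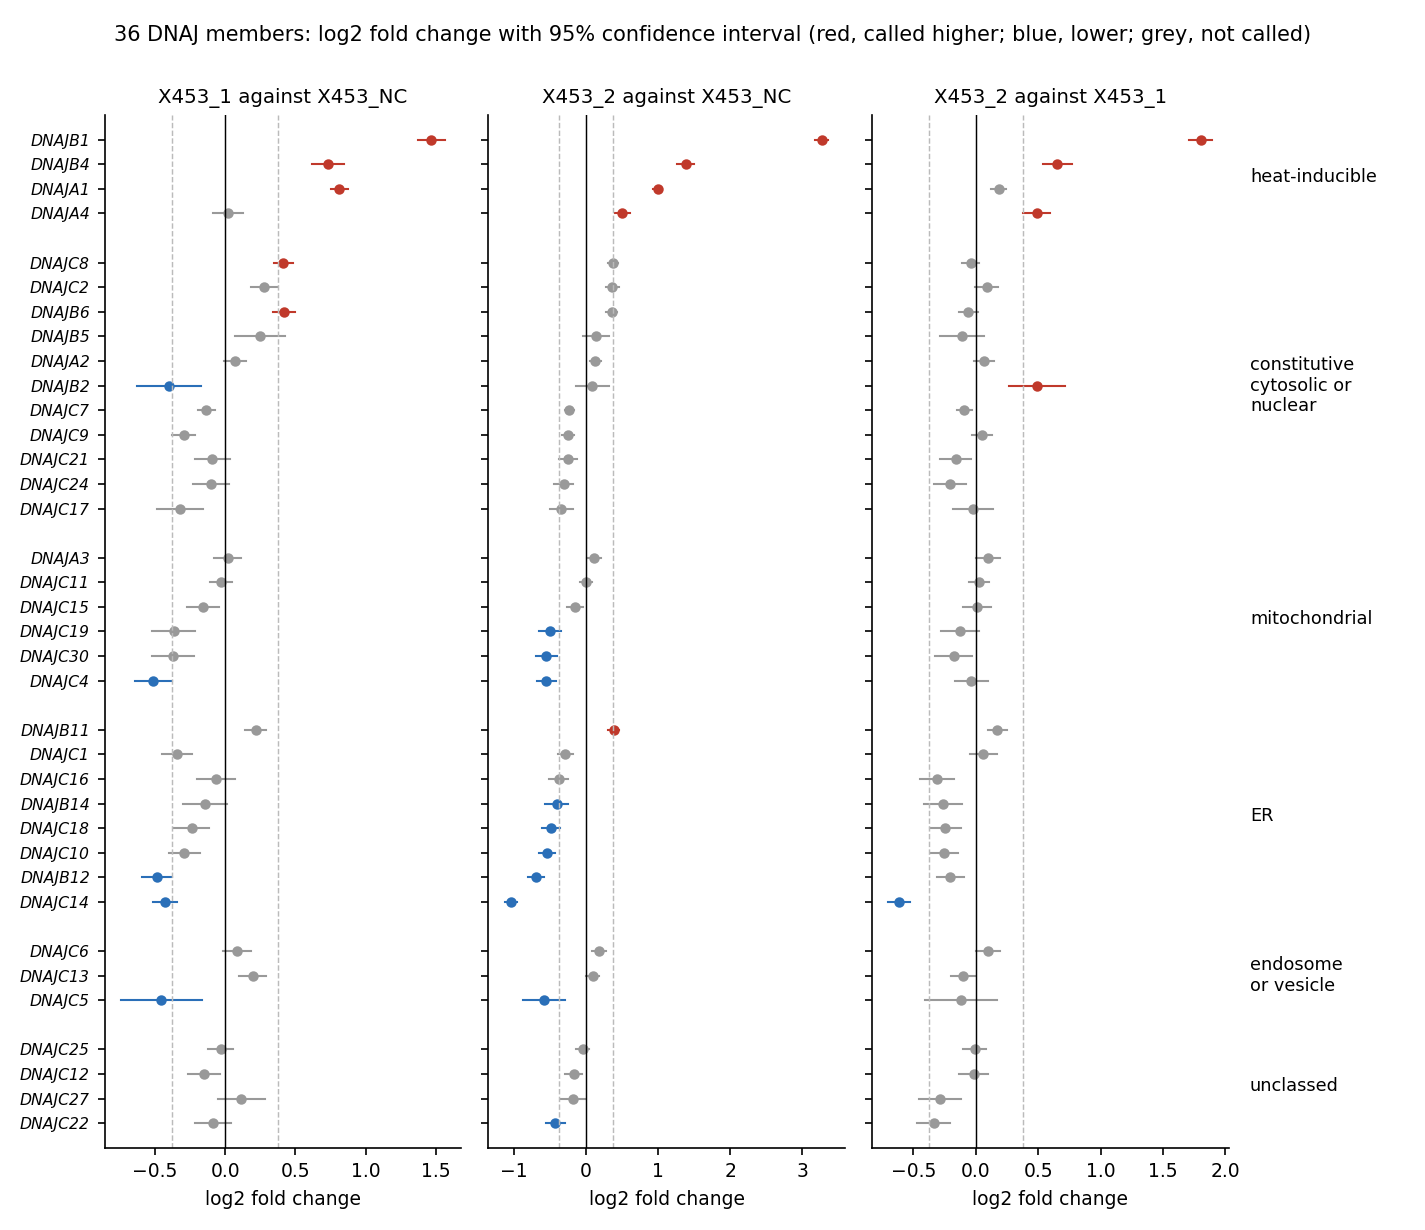
Log2 fold change on the log2(FPKM + 1) scale (point) with its 95% confidence interval (line) of the 36 tested members, grouped by class, in the 3 comparisons; red points were called higher, blue lower and grey not called, and dashed lines mark a 1.3-fold change. Heat-inducible members sit to the right in all 3 panels except DNAJA4 in X453_1 (0.02), and DNAJC14 is the lowest member in X453_2 (-1.04).

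DNAJB1 (chr19:14625576-14640134, GRCh37, minus strand) moved most. Its 3 control libraries were at 67.37, 65.30 and 67.28 FPKM, those of X453_1 at 192.45, 181.37 and 184.50, and those of X453_2 at 695.72, 639.64 and 621.57. The 3 groups were fully separate, with X453_2 above X453_1 and X453_1 above the control. DNAJB1 rose by a log2 fold change of 1.47 ± 0.042 (SE) in X453_1 (limma, adjusted P = 1.0e-08) and 3.27 ± 0.042 in X453_2 (adjusted P = 4.1e-11), which are FPKM ratios of 2.79 and 9.79. About 3935 to 4310 fragments stood behind each control value and 33729 to 40482 behind each X453_2 value.

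DNAJA1 (chr9:33025201-33039905, GRCh37, plus strand) is the major farnesylated partner of cytosolic HSP70 and folds clients such as steroid receptors. It was at 34.60, 34.65 and 34.13 FPKM in X453_NC, 61.86, 60.38 and 61.58 in X453_1, and 69.64, 68.01 and 71.37 in X453_2. Every knockdown library was above every control library, and every X453_2 library was above those of X453_1. The log2 fold changes were 0.81 ± 0.028 (SE, limma, adjusted P = 2.7e-08) in X453_1 and 0.99 ± 0.028 (adjusted P = 2.9e-09) in X453_2. The GENCODE annotation lists 6 pseudogenes named after DNAJA1, and how their reads were assigned is not given in the sources used here.

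DNAJB4 (chr1:78444842-78483648, GRCh37, plus strand) is a close relative of DNAJB1 that is abundant in muscle. Its libraries were at 4.57, 4.68 and 4.17 FPKM in X453_NC, 8.27, 7.85 and 8.06 in X453_1, and 13.85, 13.45 and 12.52 in X453_2, again in 3 separate groups. It rose by 0.73 ± 0.051 (SE, limma, adjusted P = 1.6e-06) in X453_1 and by 1.38 ± 0.051 (adjusted P = 1.7e-08) in X453_2 on the log2 scale. The first bases of its locus overlap those of FUBP1 on the opposite strand over 277 bases, and FUBP1 ranged from 33.82 to 39.83 FPKM in the 9 libraries.

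DNAJA4 (chr15:78556487-78574538, GRCh37, plus strand), a heat-induced member related to DNAJA1, was called in X453_2 and not in X453_1. It was at 8.76, 8.62 and 8.59 FPKM in X453_NC and at 9.06, 8.40 and 8.92 in X453_1, where the groups overlapped and the log2 fold change was 0.02 ± 0.048 (SE, limma, adjusted P = 0.74). In X453_2 it was at 13.62, 12.52 and 12.06 FPKM, above every other library, and rose by 0.51 ± 0.048 (adjusted P = 8.1e-06).

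**Figure D3:**
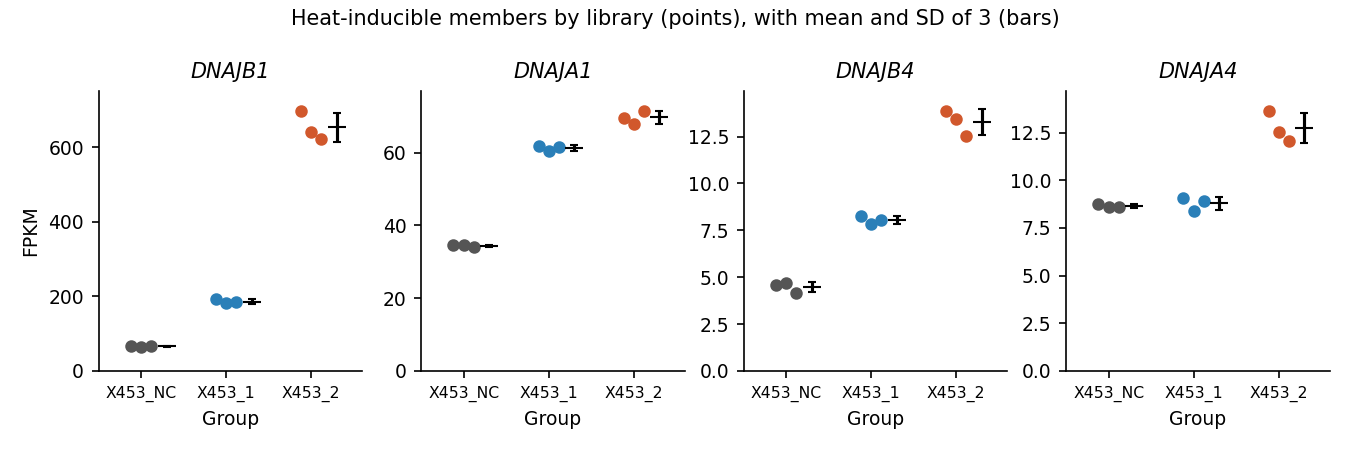
FPKM of the 4 heat-inducible members in each library (points) by group, with the mean and SD of 3 libraries (black bars); each y axis starts at 0 and has its own scale. DNAJB1, DNAJA1 and DNAJB4 are separate in all 3 groups, and DNAJA4 separates in X453_2 at 12.06 to 13.62 FPKM.

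HSF1 binds heat-shock elements, which are runs of the unit GAA and its reverse complement TTC, alternating with 2 bases between them. The letters GAANNTTC or TTCNNGAA, each of which reads the same on both strands, were searched in RefSeq promoters (GRCh38.p14, 250 bases before to 50 after each start). They occur in 13.5% of the 35116 promoters in the table, and 3 alternating units in a row, which contain overlapping matches of the shorter motif, in 0.49%. Promoters were found for 38 of the 43 members, and DNAJB3, DNAJC1, DNAJC22, DNAJC24 and DNAJC5B had none in the table. All 4 heat-inducible members held the shorter motif in at least 1 of their promoters, against 4 of the 34 others: DNAJB6, DNAJB7, DNAJC15 and DNAJC6. Over all genes of the table, 16.2% held it in any promoter. The stretches around all matches of the heat-inducible members and of DNAJB6, the constitutive member with 3 units in a row, are shown. These are the members that were called higher in at least 1 comparison and hold the motif. DNAJC8, DNAJB11 and DNAJB2 were also called higher in at least 1 comparison, and their promoters held no match. Matches are in capitals, positions count from the annotated start, and each sequence reads 5′ to 3′ on the strand of the gene.
DNAJB1, chr19:14518417-14518494, minus strand, -97 to -20: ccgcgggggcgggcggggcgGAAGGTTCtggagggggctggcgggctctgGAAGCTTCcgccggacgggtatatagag
DNAJB1, chr19:14517918-14517947, minus strand, -10 to 20 of another start: ccgctcggccaGAAGCTTCtagcatgtctg
DNAJA4, chr15:78264451-78264537, plus strand, -111 to -25: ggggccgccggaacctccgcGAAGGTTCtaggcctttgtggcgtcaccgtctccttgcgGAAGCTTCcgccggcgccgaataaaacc
DNAJB4, chr1:78004821-78004868, plus strand, -118 to -71: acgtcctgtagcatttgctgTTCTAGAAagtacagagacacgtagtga
DNAJA1, chr9:33025055-33025102, plus strand, -218 to -171: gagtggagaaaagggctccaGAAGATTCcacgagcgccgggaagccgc
DNAJA1, chr9:33025268-33025297, plus strand, -5 to 25: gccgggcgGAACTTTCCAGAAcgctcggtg
DNAJB6, chr7:157336853-157336905, plus strand, -151 to -99: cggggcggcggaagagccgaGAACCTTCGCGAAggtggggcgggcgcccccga
DNAJB1 and DNAJA4 each carry the shorter motif at a pair of places before 1 of their starts, DNAJB1 once more just after another start, DNAJB4 a single one before its start, and DNAJA1 a single one upstream and 3 units in a row just after its start. DNAJB1 and DNAJA4 have 3 promoters each in the table and DNAJB4 has 2, and which start these cells use was not tested. A match is a description of letters, and binding was not measured.

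Among the constitutive members, DNAJB6 (chr7:157129710-157210133, GRCh37, plus strand) and the splicing-associated DNAJC8 were called higher in X453_1 and stood just under the fold limit in X453_2. DNAJB6 was at 54.43, 55.36 and 53.66 FPKM in X453_NC, 72.71, 74.44 and 72.38 in X453_1, and 72.95, 70.29 and 67.09 in X453_2. All 6 knockdown libraries were above the controls, with log2 fold changes of 0.42 ± 0.034 (SE, limma, adjusted P = 4.0e-06) and 0.36 ± 0.034 (adjusted P = 8.1e-06). For DNAJC8 the log2 fold changes were 0.41 and 0.37, with adjusted P of 2.3e-06 and 2.8e-06 in limma, and the X453_1 call was lost after correction for GC content (0.31). DNAJC7 was at 56.17 to 58.74 FPKM in X453_NC, 51.82 to 52.94 in X453_1 and 48.83 to 49.29 in X453_2, with log2 fold changes of -0.14 and -0.23 that did not reach the fold limit. DNAJA2, the constitutive relative of DNAJA1, was at 37.75 to 40.58, 39.94 to 42.07 and 42.10 to 42.93 FPKM, with log2 fold changes of 0.069 and 0.13.

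DNAJB2 (chr2:220144040-220151622, GRCh37, plus strand), which carries ubiquitin-interacting motifs and is best known from neurons, was called lower in X453_1 and not in X453_2. It was at 23.07, 21.16 and 23.28 FPKM in X453_NC, 18.69, 16.94 and 14.88 in X453_1, and 20.48, 27.25 and 24.69 in X453_2. X453_1 lay below the control, and X453_2 overlapped it. The log2 fold change was -0.40 ± 0.10 (SE, limma, adjusted P = 0.0059) in X453_1 and 0.089 ± 0.10 (adjusted P = 0.45) in X453_2. The X453_1 call was lost without X453_1_r2 (-0.32), without X453_NC_r2 (-0.38) or after GC correction (-0.28).

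In the ER class, 2 of 8 members were called lower in X453_1 and 5 of 8 in X453_2, beside 15.6% and 23.1% of all genes tested. DNAJC14 (chr12:56214744-56223420, GRCh37, minus strand), an ER membrane protein known for its effect on receptor export and flavivirus replication, was at 15.90, 15.58 and 15.00 FPKM in X453_NC, 11.38, 11.43 and 11.03 in X453_1, and 6.83, 7.25 and 6.98 in X453_2. The 3 groups were separate and stood in the reverse order of DNAJB1. DNAJC14 fell by 0.43 ± 0.038 (SE, limma, adjusted P = 7.6e-06) in X453_1 and by 1.04 ± 0.038 (adjusted P = 1.6e-08) in X453_2 on the log2 scale. Its locus overlaps ORMDL2 on the opposite strand over 216 bases, and ORMDL2 was at 5.97 to 9.96 FPKM.

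DNAJB12 (chr10:74092588-74114907, GRCh37, minus strand), an ER membrane protein that recruits cytosolic HSP70 for degradation of misfolded membrane proteins, was at 10.77, 10.35 and 10.50 FPKM in X453_NC, 6.78, 7.31 and 7.63 in X453_1, and 5.95, 6.09 and 6.42 in X453_2. It fell by 0.49 ± 0.048 (SE, limma, adjusted P = 1.4e-05) and 0.69 ± 0.048 (adjusted P = 9.6e-07). Called lower in X453_2 alone were its relative DNAJB14, the disulfide reductase DNAJC10, and DNAJC18, which went from 2.81, 2.85 and 2.67 FPKM in X453_NC over 2.06, 2.16 and 2.39 in X453_1 to 1.71, 1.70 and 1.70 in X453_2. DNAJB11, the soluble ER lumen partner of HSPA5, went the other way: it was at 40.22 to 43.29 FPKM in X453_NC, 48.11 to 49.04 in X453_1 and 53.55 to 55.99 in X453_2, with log2 fold changes of 0.22 (not called) and 0.39 (called, limma, adjusted P = 3.9e-06). The DNAJB11 call was lost without X453_2_r1 (0.37) or X453_NC_r2 (0.36), and the DNAJB14 call without X453_2_r2 (-0.35) or X453_NC_r1 (-0.35). GC correction also ended the DNAJB11 call (0.32), and scaling to the median ratio the DNAJB14 call (-0.33). DNAJC16 fell just short of the fold limit in X453_2, with an FPKM ratio of 0.69. It was called lower there with 0.1 FPKM added (-0.52), after GC correction (-0.46) and in some fits with a library left out.

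Among the 6 mitochondrial members, 1 was called lower in X453_1 and 3 in X453_2, beside 15.6% and 23.1% of all genes tested. DNAJC4 (chr11:63997753-64001753, GRCh37, plus strand) was at 22.35, 19.59 and 19.64 FPKM in X453_NC, 13.73, 14.60 and 13.87 in X453_1, and 13.39, 13.02 and 14.65 in X453_2. The knockdown groups overlapped each other and lay below the control, with a fall of 0.51 ± 0.059 (SE, limma, adjusted P = 4.0e-05) and of 0.55 ± 0.059 (adjusted P = 1.9e-05). DNAJC19, of the inner membrane, and DNAJC30 were called lower in X453_2. DNAJC19 has 9 pseudogenes of its name in GENCODE. DNAJC30 rested on 91 to 100 fragments per control library and 39 to 44 per X453_2 library. Its FPKM ratios to the control were 0.62 in X453_1 and 0.47 in X453_2. On the log2(FPKM + 1) scale, which understates such low values, its differences were -0.37, not called, and -0.55, called, and with 0.1 FPKM added the X453_1 difference was -0.63 and called. Since it passed the filter through X453_NC, where it is high, its call is no support for a fall of the class, and without it 2 of 5 mitochondrial members were called lower in X453_2. DNAJA3, the mitochondrial DnaK partner, and DNAJC11 of the cristae-organising complex lay between -0.03 and 0.12 in both comparisons and were not called.

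DNAJC5 (chr20:62526455-62567384, GRCh37, plus strand), the cysteine string protein of secretory vesicles, was called lower in both knockdown groups. It was at 19.45, 19.60 and 20.80 FPKM in X453_NC, 12.89, 15.84 and 14.28 in X453_1, and 14.20, 15.53 and 10.05 in X453_2. The knockdown libraries were spread widely but all lay below the control, with falls of 0.45 ± 0.13 (SE, limma, adjusted P = 0.011) and 0.58 ± 0.13 (adjusted P = 0.0026). The X453_1 call was lost after correction for GC content (-0.37). The table's span of TPD52L2, on the same strand, covers all 40930 bases of DNAJC5, so the assignment of their reads is uncertain. The other members of this class, the clathrin uncoating factor DNAJC6 and the endosomal DNAJC13, lay between 0.085 and 0.20 and were not called.

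**Figure D4:**
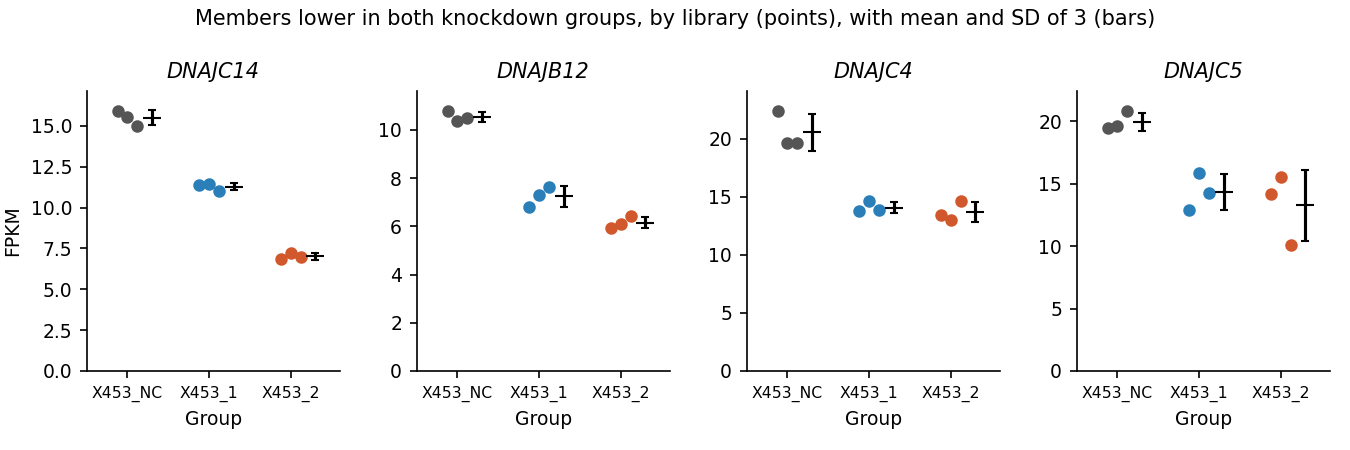
FPKM of the 4 members called lower in both knockdown groups, in each library (points) by group, with the mean and SD of 3 libraries (black bars); each y axis starts at 0. DNAJC14 and DNAJB12 step down from group to group, and DNAJC4 is separate from the control in both knockdown groups. DNAJC5, whose X453_1 call was lost after correction for GC content, has the widest spread, 10.05 to 15.53 FPKM in X453_2.

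Of the unclassed members, DNAJC22 was called lower in X453_2 (-0.42), a call that scaling to the median ratio ended (-0.33). DNAJC12, a co-chaperone of the aromatic amino acid hydroxylases, DNAJC25 and DNAJC27 were not called in X453_1 or X453_2. DNAJC27 was at 1.82, 1.93 and 1.99 FPKM in X453_NC, 2.16, 1.92 and 2.39 in X453_1, and 1.70, 1.67 and 1.38 in X453_2. DNAJC25 overlaps the read-through gene DNAJC25-GNG10 on the same strand, listed at 0 to 1.22 FPKM, so the split between these is uncertain.

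The knockdown groups were also compared with each other, with the same fit and filter over all 9 libraries, the controls among them. Between X453_2 and X453_1, 4 of the 36 members were called higher and 1 lower, beside 2.19% and 5.45% of all genes. A fit to only the 2 groups compared, with the same filter, also gave 4 higher and 1 lower. The 4 higher in X453_2 were DNAJB1, DNAJB4, DNAJB2 and DNAJA4, and the lower was DNAJC14. The heat-inducible members had a median difference of 0.57 on the log2 scale, the 32 others -0.077 and all genes -0.081. DNAJB1 differed by 1.80 ± 0.042 (SE, limma, adjusted P = 2.5e-08), an FPKM ratio of 3.51. DNAJB4 differed by 0.65 ± 0.051 (adjusted P = 2.1e-05 in limma), DNAJA4 by 0.49 ± 0.048 (adjusted P = 7.9e-05) and DNAJB2 by 0.49 ± 0.10 (adjusted P = 0.0038). DNAJC14 differed by -0.61 ± 0.038 (limma, adjusted P = 6.2e-06). DNAJA1 was higher in every X453_2 library than in every X453_1 library, with a difference of 0.18 ± 0.028 that did not reach the fold limit. Without X453_2_r1, DNAJC22 was also called lower (-0.40), which made 2. Scaling to the median ratio left the members at 4 higher and 1 lower, although it moved the share of lower among all called genes in this comparison from 71.3% to 38.0%; in X453_2 against the control it moved from 67.8% to 53.2%.

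The HSP70 cycle genes that the members serve were taken from a list of 37 partners, of which 34 were tested. In X453_1, 10 were called higher and 4 lower, beside 11.1% and 15.6% of all genes tested. In X453_2, 9 were called higher and 6 lower, beside 11% and 23.1%. Between the knockdown groups, 6 were called higher and 1 lower in X453_2, beside 2.19% and 5.45%. HSP70 and HSP110 genes held 7 of the 10 higher calls in X453_1, 7 of the 9 in X453_2, and all 6 between the groups. HSPA6 is among the latter 2 counts and passed the filter through X453_2, where it is high; without it, a choice made after its values were seen, they are 6 of 8 and 5 of 5.

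HSPA1B, an inducible cytosolic HSP70, was at 24.37, 23.94 and 25.08 FPKM in X453_NC, 110.71, 87.88 and 74.44 in X453_1, and 553.48, 639.15 and 579.71 in X453_2, with log2 fold changes of 1.84 and 4.54. HSPA1A, its near-identical copy, rose by 1.83 and 4.22, and the split of reads between these copies is uncertain. HSPH1, the HSP110 exchange factor, rose by 1.35 and 2.14, from 19.87 to 20.11 FPKM in X453_NC to 87.71 to 95.78 in X453_2. These genes stood in the order of DNAJB1, control below X453_1 below X453_2, with no overlap.

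HSPA5, the HSP70 of the ER lumen, rose by 0.73 and 1.54, and HSPA2 by 0.93 and 1.03. The HSP90 adaptor STIP1 rose by 0.96 and 1.03, and BAG3, an exchange factor of stressed cells, by 0.71 and 1.05. HSPA6, a strictly inducible HSP70, was at 0.10 to 0.16 FPKM in X453_NC, 0.28 to 0.40 in X453_1 and 3.34 to 3.47 in X453_2. The constitutive HSPA8 was called in X453_2 (1.02) and not in X453_1 (0.36).

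Lower in both knockdown groups were the mitochondrial HSP70 HSPA9 (-0.48 and -0.72), the ubiquitin ligase STUB1 (-0.78 and -1.01) and HSF1 itself (-0.83 and -0.78, limma, adjusted P = 0.015 and 0.018). HSF1 was at 12.52, 10.14 and 8.52 FPKM in X453_NC, 7.69, 5.75 and 3.37 in X453_1, and 4.21, 5.32 and 7.65 in X453_2, so its libraries were spread widely within each group. Further lower calls were HSCB in X453_1 and HSPA13 and GAK in X453_2. HSF2 was not called (-0.16 and -0.21). DNAJB9 and DNAJC3, left out of the members, were not called in any comparison, with log2 fold changes of -0.37 and -0.22 for DNAJB9 and 0.19 and 0.13 for DNAJC3.

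**Figure D5:**
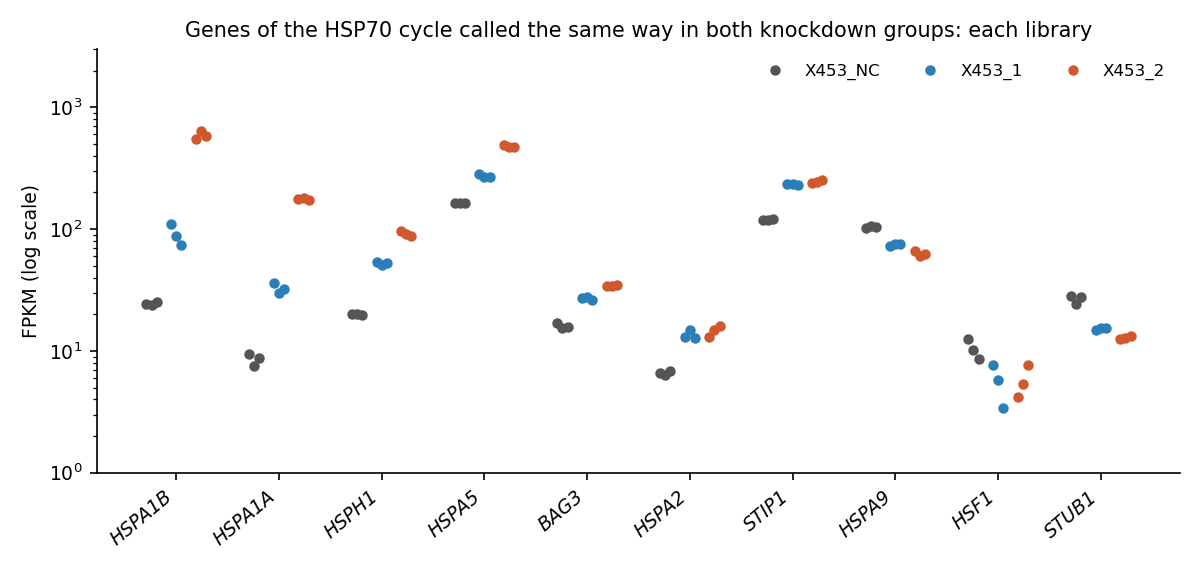
FPKM of the HSP70 cycle genes called in the same direction in both knockdown comparisons, each library a point, on a log axis, ordered by their log2 fold change in X453_2. HSPA1B, HSPA1A, HSPH1, HSPA5, BAG3 and STIP1 step up from X453_NC through X453_1 to X453_2. HSPA2 lies above the control in both knockdown groups, which overlap each other. HSPA9, HSF1 and STUB1 lie below the control in both knockdown groups.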

How the data were processed

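The authors sequenced the 9 libraries on the BGISEQ-500 and deposited 1 table of FPKM per gene; the submitters' processing notes name Bowtie2 (version 2) and GRCh37.p13, and the table's coordinates are taken as that build. How replicates were made and whether counting used strand are not given in the sources used here. The table also holds the authors' own comparison columns (fold changes and P values), which were not used. Of 19934 lines, 4 had no values. Values were tested on log2(FPKM + 1), after a filter on the mean over libraries (minimum 1 FPKM), with limma 3.58.1 (R 4.3.3; lmFit and eBayes with trend, no block), Benjamini-Hochberg adjusted over all 12884 genes, and checked on simulated data. Fold changes on this scale understate those of low genes. Genes were named by rule: heat-inducible members, members called in the same direction in both knockdown groups or between them, and the 3 highest and 3 lowest members; DNAJB11, DNAJC8, DNAJA2, HSPA6, HSPA8 and other members named by class were added after their values were seen. Members and lists were chosen with earlier results of these data known. Alternatives changed the value added, filter, threshold, scaling, GC content, libraries and block. LINC00673 itself was not analysed here, and some listed genes are not reported here.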

Additional observations from a re-analysis of the deposited data

Results flagged for a closer look

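The response differed between the knockdown groups for 5 members by the direct test of X453_2 against X453_1 (log2 scale, limma): DNAJB1 (1.80), DNAJB4 (0.65), DNAJB2 (0.49), DNAJA4 (0.49) and DNAJC14 (-0.61). Among these 5, only DNAJB2 had its 2 knockdown groups on opposite sides of the control mean, and its X453_2 libraries overlapped the control. The cause of these differences was not tested.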

How the results depend on the processing

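A limit of 2-fold left 1 member called higher and 0 lower in X453_1 (DNAJB1), 2 and 1 in X453_2, and 1 and 0 between the knockdown groups. Scaling to the median ratio gave 8 higher in X453_2, and adding 0.1 FPKM in place of 1 gave 4 lower between the knockdown groups. The median of the heat-inducible members in X453_1, X453_2 and X453_2 against X453_1 was 0.83, 1.28 and 0.62 with 0.1 FPKM added, 0.65, 1.11 and 0.59 after correction for GC content, and 0.42, 0.51 and 0.49 in a wider class with DNAJB2, DNAJB5 and DNAJB6; after scaling it was 1.29 in X453_2 and 0.67 between the knockdown groups. The median of the other members was -0.093, -0.18 and -0.051 with no filter, -0.17 in X453_2 and -0.038 between the knockdown groups at a mean of at least 5 FPKM, -0.13 and 0.028 after scaling, where the sign of the latter changed, and -0.23 in X453_1 and -0.32 in X453_2 after GC correction. Leaving out each library in turn gave heat-inducible medians of 0.75 to 0.79, 1.17 to 1.20 and 0.53 to 0.61, medians of the other members of -0.080 to -0.049 between the knockdown groups, and 9 of 10, 13 of 15 and 5 of 5 called members held in every such fit. Without X453_2_r2, 8 members were called higher in X453_2, and without X453_2_r1, 2 were called lower between the knockdown groups. GC correction ended the X453_1 calls of DNAJC8, DNAJB2 and DNAJC5 and the X453_2 call of DNAJB11. It also added lower calls: DNAJC1, DNAJC9, DNAJC10 and DNAJC19 in X453_1, and DNAJC16 and DNAJC24 in X453_2. The members called lower after GC correction were 7 in X453_1 and 12 in X453_2. Scaling ended the calls of DNAJC22 and DNAJB14 in X453_2. The causes were not tested. Same-numbered libraries did not pair (correlations of deviations from -0.24 to 0.10), and the fit with the replicate number as a block changed no member call, with 5 higher and 5 lower in X453_1, 5 and 10 in X453_2, and 4 and 1 between the knockdown groups. Genes under about 100 fragments, such as DNAJC30, are the least precise.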
